A study of Danio rerio with 6 samples.

Results

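The collagen genes were described here in RNA from sorted cells of 48-hour zebrafish embryos of both mafba genotypes. They were the rows of the count table whose symbol begins with col, a number, the letter a and a further number, in lower case, with at least 10 reads summed over the 6 libraries. Of 29361 gene rows, 45 met this rule. One of them, col4a3bpa, is a synonym of the ceramide transporter gene cert1a in the gene name table and no collagen, which left 44 collagen genes: 14 fibrillar, 9 of the basement membrane and 21 of other kinds.

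The samples were 3 libraries from mafba uq4bh mutant fish and 3 from wild-type fish, and the fish of all 6 carried the kdrl eGFP transgene, whose promoter drives the reporter in endothelial cells. The labels do not say whether the mutant fish were homozygous. The labels call the cells purified endothelial cells, whereas the protocol speaks of brains and of a pdgfr beta reporter, and RNA was amplified before sequencing.

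Collagens are secreted matrix proteins whose chains, rich in glycine, wind around each other into a rope-like helix. Fibrillar collagens, such as types 1, 2, 5 and 11, assemble into the fibrils of skin, bone, cartilage and the notochord sheath. The type 4 collagens form the sheet-like network of basement membranes, on which endothelial and epithelial cells sit, and the multiplexins (types 15 and 18) are proteoglycans of the same zone. Other families bind to fibril surfaces, anchor the epidermis, form short-chain networks or span the cell membrane.

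Between 43859736 and 52923490 reads fell on genes per library. Markers of several cell types were present in every library: the 15 endothelial markers found summed to 610 to 774 CPM (reads relative to the TMM-scaled library size) in mutant libraries and to 630 to 911 in wild-type libraries, the 6 surface epidermis markers to 3832 to 5608 and 3272 to 4760, and the 14 fibroblast and mesenchyme markers to 410 to 744 and 381 to 614. The 4 neutrophil markers summed to 5543 to 13968 CPM in mutant and 5361 to 9204 CPM in wild-type libraries. Skeletal muscle markers (6 found) summed to 1268 to 2568 and 1322 to 3845 CPM, and erythrocyte markers (4 found) to 1088.5 to 3060 and 1662 to 2423 CPM. The defining endothelial genes kdrl and cdh5 stood at 34.3 to 44.4 and 10.3 to 16.7 CPM in mutant libraries and at 35.2 to 54.8 and 15.04 to 16.9 CPM in wild-type libraries, and the 8 mural cell markers found summed to 114 to 141 CPM in mutant libraries and 118 to 138 CPM in wild-type libraries. Most of the mural sum came from myh11a and notch3, while the pericyte receptor gene pdgfrb stood at 0.319 to 1.16 CPM in mutant libraries and 0 to 0.664 in wild-type libraries. The RNA level of mafba did not separate the genotypes (log2 difference, mutant minus wild-type, -0.04 ± 0.20, SE), so it does not check the labels. In bulk samples like these, more cells of a type and more RNA per cell cannot be told apart. Reads also grow with transcript length, no transcript lengths were used here, and CPM values are therefore compared between libraries and not between genes.

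Collagen reads made up 0.466%, 0.404% and 0.384% of all reads on genes in mutant libraries 1, 2 and 3, and 0.316%, 0.370% and 0.426% in wild-type libraries 1, 2 and 3. The genotypes overlapped in this share. Of the 44 genes, 37 had reads in all 6 libraries and 7 had none in at least 1 library. Mean levels were over 100 CPM for 9 genes, between 10 and 100 CPM for 18, between 1 and 10 CPM for 11, and at most 1 CPM for 6.

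**Figure D1:**
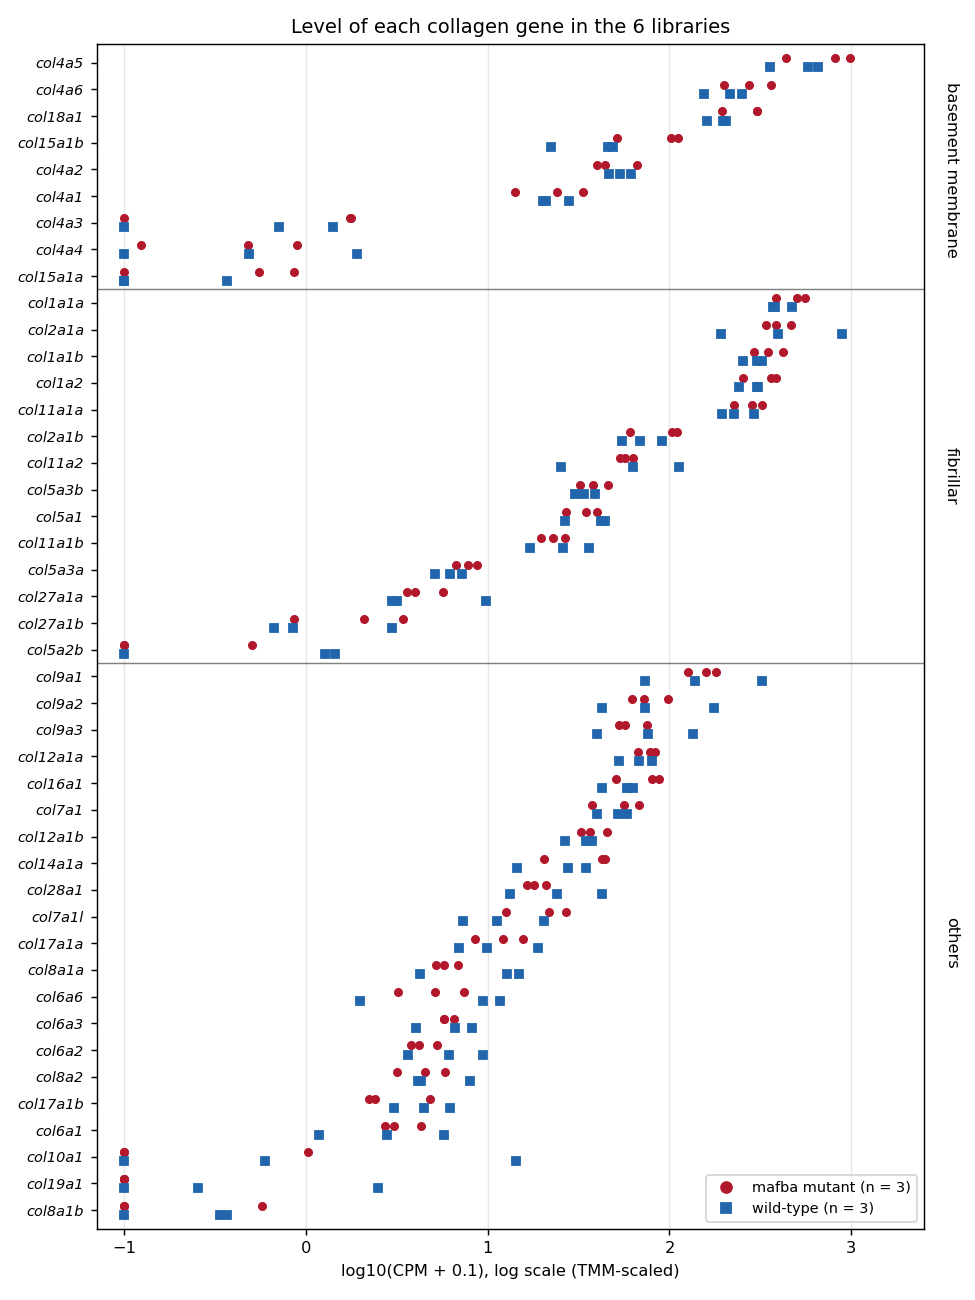
Level of each of the 44 collagen genes in the 6 libraries, on an axis of log10(CPM + 0.1), with mutant libraries as red circles above wild-type libraries as blue squares, by class. Within most genes the points of both genotypes overlap; all 3 mutant values of col15a1b, 51.4 to 111 CPM, lie above its wild-type values, 22.2 to 48.8 CPM.

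No collagen gene passed the test of genotype. The edgeR quasi-likelihood test, adjusted over all genes by the Benjamini-Hochberg method at a threshold of 0.05, called 0 of the 43 collagen genes with enough reads to be tested, against 0% of the 19381 genes tested. At an unadjusted p under 0.05 there were 2 of 43 collagen genes, or 4.65%, beside 1.57% of all genes tested. Both were multiplexins of the basement membrane class, col15a1b and col18a1, and both were fitted higher in mutant libraries; of all genes 0.903% were under 0.05 and higher and 0.671% under 0.05 and lower. DESeq2 and limma-voom also called 0 collagen genes, with 2 and 5 at an unadjusted p under 0.05 (beside 1.85% and 2.4% of all genes). The limma-voom fit gave each library a quality weight, which the other fits did not. The number under 0.05 depended on single libraries: it was 12 of 43 without mutant 3 (27.9%, beside 4.62% of all genes), 7 without wild-type 1 (beside 2.37%), 6 without wild-type 2 (beside 2.02%), 2 without wild-type 3 (beside 1.98%), 1 without mutant 1 (beside 1.23%) and 1 without mutant 2 (beside 1.14%), and the number called was 0 in each.

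Across the 43 genes the fitted values were divided. In mutant libraries 23 were fitted higher and 20 lower, 53.5% higher beside 49.3% of all genes, with a median log2 difference (mutant minus wild-type) of 0.05 beside -0.00 for all genes. By class, 7 of 9 basement membrane genes were fitted higher (median 0.49), 8 of 14 fibrillar genes (median 0.20) and 8 of 20 other genes (median -0.14). The 7 include the scarce genes col15a1a and col4a3, with an SE of 2.66 and 1.82, and col4a1, which turned sign with single libraries left out. The 2 fitted lower were the scarce col4a4, with an SE of 1.97, and col4a2, which also turned sign. For 18 of the 43 genes the 95% interval lay within a halving and a doubling of the wild-type level, 4 of them of the basement membrane, 8 fibrillar and 6 others; for the remaining genes a change of 2-fold in at least 1 direction lay inside the interval.

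**Figure D2:**
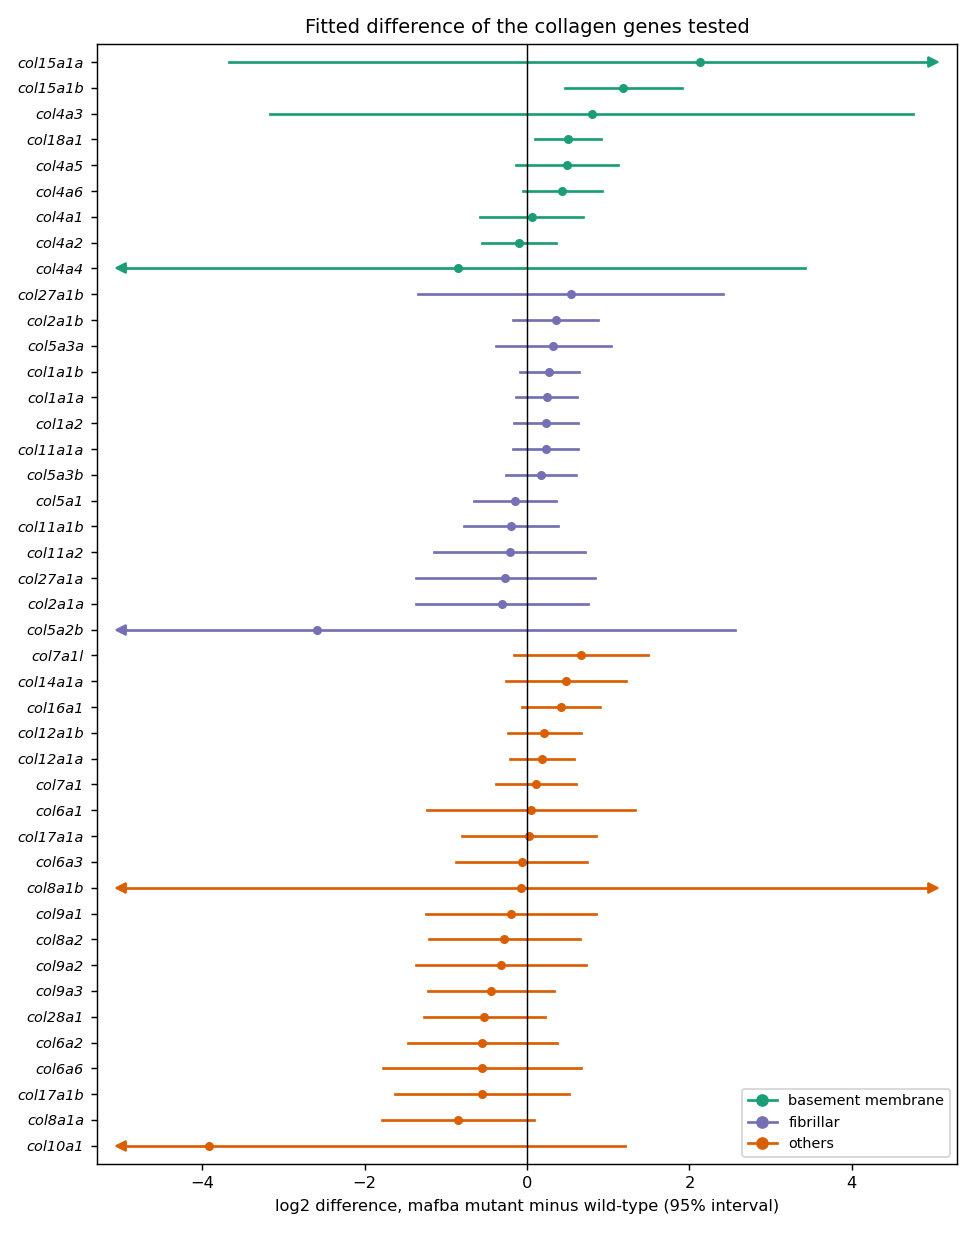
Fitted log2 difference, mutant minus wild-type, with its 95% interval for the 43 tested collagen genes, coloured by class; arrows mark intervals that run past 5 log2 units. Only col15a1b (0.46 to 1.90) and col18a1 (0.10 to 0.91) have intervals that exclude 0, and 0 genes passed after adjustment.

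Among the basement membrane collagens, the multiplexin gene col15a1b gave the clearest separation of the genotypes. Its product, type 15 collagen, is a proteoglycan of the outer face of basement membranes around muscle, nerve and vessels in mammals. The level was 111, 102 and 51.4 CPM in mutant libraries 1, 2 and 3, against 45.7, 48.8 and 22.2 CPM in wild-type libraries 1, 2 and 3. All 3 mutant values lay above all 3 wild-type values, and within each genotype library 3 was the lowest. It was the 1 collagen gene of 43 whose genotypes did not overlap in the direction of higher mutant values (2.33%, beside 3.38% of all genes), and 0 were separated in the other direction (beside 3.36%). Means were 88.2 ± 32.2 CPM in mutant and 38.9 ± 14.6 CPM in wild-type libraries (SD, n = 3 each). The fitted level in mutant libraries was 2.27 times that in wild-type libraries, with a 95% interval of 1.38 to 3.74, a log2 difference of 1.18 ± 0.33 (SE). Its unadjusted p of 0.00405 in edgeR was sixth in rank among all 19381 genes, and its adjusted p was 1.00. Only 1.57% of all genes had an unadjusted p under 0.05 in edgeR, fewer than an even spread of p-values would give. The rank alone therefore overstates this p. With each library left out in turn the log2 difference of col15a1b stayed between 0.90 and 1.46.

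Its paralogue col15a1a was near absent, with 36, 19 and 0 reads in mutant libraries and 0, 0 and 14 in wild-type libraries. No direction can be read from so few reads.

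The other multiplexin, col18a1, encodes type 18 collagen, whose C-terminal fragment is endostatin. It stood at 304, 302 and 193 CPM in mutant libraries, against 205, 196 and 162 CPM in wild-type libraries. Mutant 1 and mutant 2 lay above every wild-type library, while mutant 3 lay below wild-type 1 and wild-type 2. The fitted ratio of mutant to wild-type was 1.42, with a 95% interval of 1.07 to 1.88 and a log2 difference of 0.51 ± 0.19 (SE), and the gene did not pass (edgeR adjusted p = 1.00). When libraries were scaled by their total reads alone, col18a1 and col1a1b joined col15a1b as genes whose genotypes did not overlap, 3 of 43 beside 6.57% of all genes in either direction.

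**Figure D3:**
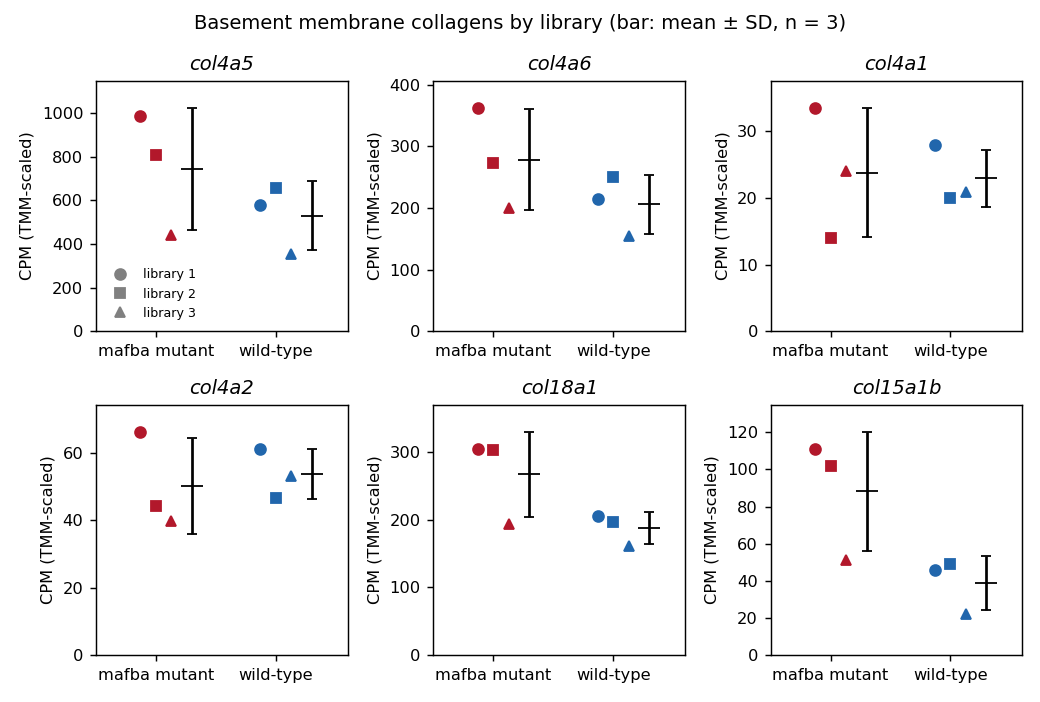
CPM of the 6 basement membrane collagen genes with a mean over 10 CPM in each library, mutant left and wild-type right, with symbols for library numbers 1 to 3 and bars for the mean ± SD (n = 3). The gene col15a1b separates the genotypes, col4a5, col4a6 and col18a1 overlap through mutant 3, and col4a1 and col4a2 overlap throughout.

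The type 4 genes fall into pairs, and in the gene name table (assembly GRCz12tu) col4a1 and col4a2, col4a3 and col4a4, and col4a5 and col4a6 are each direct neighbours among protein-coding genes. The chains of col4a1 and col4a2 make the type 4 collagen found in nearly all basement membranes, including those of vessels. The chains of col4a5 and col4a6 join in networks of particular epithelia, and col4a5 is the gene of the zebrafish dragnet mutants, in which retinal axons lose their layered targeting in the tectum.

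The pair col4a5 and col4a6 drew most of the type 4 reads. Levels of col4a5 were 988, 809 and 439 CPM in mutant libraries, against 581, 656 and 355 CPM in wild-type libraries. Levels of col4a6 were 362, 274 and 199 CPM in mutant libraries, against 214, 250 and 154 CPM in wild-type libraries. For both genes mutant 1 and mutant 2 exceeded all wild-type libraries, and mutant 3 lay under wild-type 1 and wild-type 2. The log2 differences were 0.49 ± 0.29 and 0.44 ± 0.22 (SE), and neither passed. The ratio of col4a5 to col4a6 reads within a library varied less than either gene: it was 2.73, 2.96 and 2.21 in mutant and 2.71, 2.63 and 2.303 in wild-type libraries, a 1.34-fold range over the 6 libraries, where col4a5 itself spanned 2.78-fold and col4a6 2.35-fold.

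The pair col4a1 and col4a2 had mutant values above and below the wild-type range, and the pairs were not tested against each other. Levels of col4a1 were 33.45, 14.02 and 24.02 CPM in mutant libraries, against 27.91, 20.01 and 20.93 CPM in wild-type libraries, and the mutant libraries held both the highest and the lowest value. Levels of col4a2 were 66.4, 44.4 and 40.0 CPM in mutant libraries, against 61.4, 46.6 and 53.1 CPM in wild-type libraries, again with the mutant range enclosing the wild-type range. The log2 differences, 0.05 ± 0.29 for col4a1 and -0.10 ± 0.21 for col4a2 (SE), turned sign when single libraries were left out (-0.27 to 0.33 and -0.35 to 0.04). Their 95% intervals gave ratios of mutant to wild-type of 0.667 to 1.62 and of 0.681 to 1.29. The third pair was scarce: col4a3 had at most 99 reads and col4a4 at most 79 in any library, and each had a library of 0 reads.

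Among the fibrillar collagens, the type 1 genes encode the main collagen of skin, tendon and bone. Levels of col1a1a were 559, 500 and 386 CPM in mutant libraries, against 474, 369 and 380 CPM in wild-type libraries. Levels of col1a1b, which encodes a further chain found in fish, were 419, 350 and 293 CPM in mutant libraries, against 324, 303 and 252 CPM in wild-type libraries. Levels of col1a2 were 387, 360 and 252 CPM in mutant libraries, against 306, 305 and 240 CPM in wild-type libraries. In all of these genes mutant 1 and mutant 2 stood above each wild-type library and mutant 3 did not. The log2 differences were close to each other, 0.24 ± 0.17, 0.27 ± 0.17 and 0.23 ± 0.18 (SE), none passed, and the 95% intervals reached at most 1.56 times the wild-type level. Within libraries the ratio of col1a1b to col1a2 reads lay between 0.973 and 1.16, and that of col1a1a to col1a2 between 1.21 and 1.58.

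Summed fibroblast and mesenchyme markers, 14 of 14 found, stood at 744, 650 and 410 CPM in mutant libraries, against 614, 455 and 381 CPM in wild-type libraries, so that library 3 was the lowest within each genotype, as for col15a1b, col18a1, col4a5, col4a6, col1a1b and col1a2. The matrix gene postnb made up most of this sum, and the members differed in order. The genes postnb, dcn, fbln1 and prrx1b were lowest in library 3 within each genotype. By contrast, pdgfra, twist2, prrx1a and tnmd had mutant 1 as the lowest of all libraries. Levels of pdgfra were 0.85, 2.52 and 2.17 CPM in mutant libraries, against 4.50, 3.89 and 4.31 CPM in wild-type libraries. Of the 14 markers 7 were fitted higher and 7 lower in mutant libraries, and 0 passed. The summed basal epidermis markers (5 of 6 found) were also lowest in library 3 within each genotype, at 972, 743 and 698 CPM in mutant and 789, 780 and 649 CPM in wild-type libraries. This came from lama5 and tp63, whereas krt5, itgb4 and itga6b were lowest in library 3 in neither genotype. The sums of the surface epidermis and skeletal muscle markers were lowest in library 3 within each genotype as well. The part of these cell types in the collagen levels was not tested.

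The products of the type 2, 9 and 11 genes build the fibrils of cartilage and of the embryonic notochord sheath. Of these genes, col2a1a, col11a2 and the type 9 genes showed a wide spread among wild-type libraries. The others spanned less there, 1.49-fold for col11a1a, 1.66-fold for col2a1b and 2.11-fold for col11a1b. Levels of col2a1a were 385, 341 and 463 CPM in mutant libraries, against 192, 393 and 887 CPM in wild-type libraries. The 3 mutant values lay between the lowest and the highest wild-type value. The same held for col11a2, at 56.8, 53.7 and 63.0 CPM in mutant and 25.1, 63.1 and 113 CPM in wild-type libraries, with wild-type 1 lowest and wild-type 3 highest. Within wild-type libraries the highest value exceeded the lowest 4.62-fold for col2a1a and 4.52-fold for col11a2, against 1.36-fold and 1.17-fold within mutant libraries. The log2 difference of col2a1a was -0.31 ± 0.46 (SE), did not pass, and became 0.44 without wild-type 3.

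Type 9 collagen, which coats type 2 fibrils, varied alike in its 3 chain genes. Levels of col9a1 were 126, 158 and 180 CPM in mutant libraries, against 73.1, 138 and 321 CPM in wild-type libraries. Levels of col9a2 were 72.7, 62.0 and 98.2 CPM in mutant libraries, against 42.2, 73.0 and 175 CPM in wild-type libraries. Levels of col9a3 were 52.6, 56.6 and 75.5 CPM in mutant libraries, against 39.9, 76.0 and 135 CPM in wild-type libraries. All had wild-type 1 as the lowest and wild-type 3 as the highest library, with the mutant libraries between them. The log2 differences of -0.20 ± 0.45, -0.32 ± 0.46 and -0.44 ± 0.35 (SE) did not pass, and without wild-type 3 they were 0.55, 0.43 and 0.09. The ratio of col2a1a to col9a1 reads was steady, from 2.16 to 3.04 over the 6 libraries, although col2a1a spanned 4.62-fold and col9a1 4.39-fold. The symbol col9a1 is listed as a synonym of both col9a1b and col22a1 in the gene name table, so the gene behind it is not certain. A separate row, COL9A1_(2_of_2), fell outside the membership rule by its capital letters. It stood at 5.14, 2.06 and 8.17 CPM in mutant and 3.70, 11.4 and 12.6 CPM in wild-type libraries. Wild-type 3 was again the highest library, but mutant 2 was the lowest.

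Not every gene of this group followed that order. The paralogue col2a1b was lowest in wild-type 3, at 54.7 CPM, and the ratio of col2a1a to col2a1b reads was 3.71, 3.10 and 7.65 in mutant and 2.78, 4.32 and 16.2 in wild-type libraries. The gene col11a1a was highest in mutant 1, with 226 to 323 CPM in mutant and 195 to 290 CPM in wild-type libraries, and col11a1b was highest in wild-type 2, with 19.6 to 26.4 and 17.03 to 35.9 CPM. The hypertrophic cartilage collagen gene col10a1 had 0, 0 and 55 reads in mutant libraries and 21, 0 and 736 in wild-type libraries, so that wild-type 3 held most of its reads. The 9 cartilage markers found summed to 139, 132 and 157 CPM in mutant and 116, 198 and 207 CPM in wild-type libraries. This sum was likewise lowest in wild-type 1 and highest in wild-type 3, but its members were divided. Only lect1 followed this order. The markers acanb, hapln1a, hapln1b and runx2b were highest in wild-type 3, with a library other than wild-type 1 as the lowest. By contrast, sox9a, sox9b and matn1 were highest in wild-type 2, and acana in mutant 2. The notochord markers (7 of 8 found) summed to 230, 212 and 151 CPM in mutant and 150, 185 and 204 CPM in wild-type libraries, and their members were divided. Both ntla and epyc had wild-type 1 as the lowest and wild-type 3 as the highest library. Levels of epyc were 42.6, 43.3 and 53.2 CPM in mutant and 29.0, 52.1 and 83.7 CPM in wild-type libraries. The markers shha, shhb, foxa2 and cav1 were highest in mutant 1 or mutant 2, and flh had reads in wild-type 3 alone. Of the 9 cartilage markers 1 was fitted higher and 8 lower in mutant libraries, and 0 passed. The matrix genes matn1 and acana, picked after their values were seen, lay in opposite directions, matn1 at 0 to 2.80 CPM in mutant and 1.06 to 8.68 CPM in wild-type libraries, and acana at 2.93 to 5.22 CPM in mutant and 1.05 to 2.19 CPM in wild-type libraries. The part of these cells in the collagen levels was not tested.

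**Figure D4:**
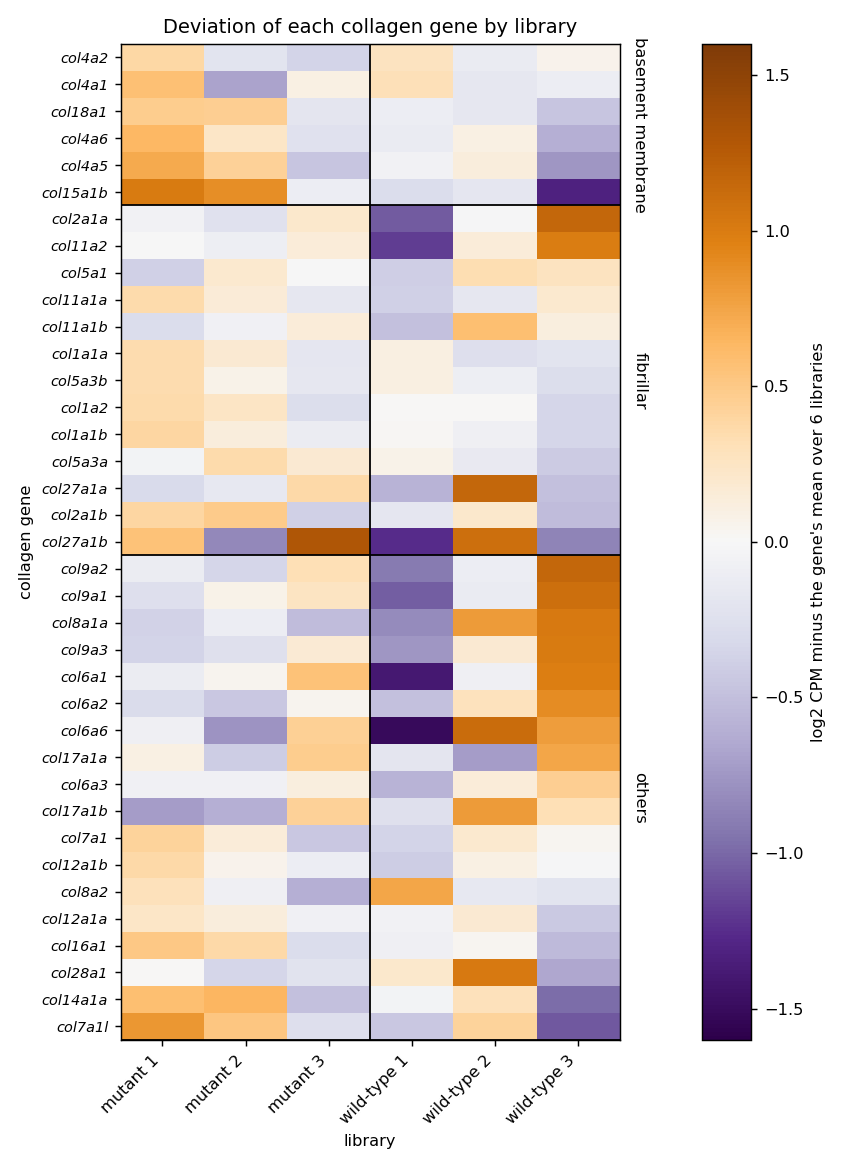
Deviation of log2 CPM from the gene's mean over the 6 libraries for the 37 collagen genes with reads in every library, by class, mutant columns left and wild-type columns right, each class ordered by wild-type 3. The genes col2a1a, col11a2, col9a1, col9a2 and col9a3 are low in wild-type 1 and high in wild-type 3, whereas col15a1b, col4a5, col4a6 and col18a1 are low in wild-type 3 and high in mutant 1.

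The libraries with extreme values were few. Mutant 1 was the highest library for 17 of 43 collagen genes (39.5%, beside 15.8% of all genes tested) and wild-type 3 for 11 (25.6%, beside 16.2%). Wild-type 1 was the lowest for 17 (39.5%, beside 14.1%) and wild-type 3 for 14 (32.6%, beside 13.1%). The 17 genes highest in mutant 1 include 7 of the 9 basement membrane genes and the type 1 genes, and the 11 highest in wild-type 3 include no basement membrane gene, 2 fibrillar genes and 9 others. Collagen genes share their libraries and several are co-expressed, so these counts describe the libraries.

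Among the remaining fibrillar genes the genotypes overlapped. Type 5 collagen joins type 1 in fibrils and limits their width, and its genes col5a1 and col5a3b stood at 26.8 to 39.9 and 32.2 to 46.0 CPM in mutant libraries, against 26.5 to 44.0 and 30.1 to 39.0 CPM in wild-type libraries. The gene col5a3a stood at 6.57 to 8.64 CPM in mutant and 5.04 to 7.11 CPM in wild-type libraries. Both col27a1a (3.48 to 5.59 and 2.90 to 9.66 CPM) and col27a1b (0.759 to 3.33 and 0.565 to 2.88 CPM) overlapped between mutant and wild-type libraries. The gene col5a2b had 0, 0 and 24 reads in mutant libraries and 57, 0 and 61 in wild-type libraries.

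Of the collagens that decorate fibrils other than type 9, none passed. Levels of col16a1 were 87.3, 80.0 and 50.7 CPM in mutant libraries, against 58.3, 62.9 and 42.6 CPM in wild-type libraries, a log2 difference of 0.41 ± 0.22 (SE). Levels of col12a1a were 83.0, 77.6 and 67.3 CPM in mutant libraries, against 68.2, 80.2 and 52.6 CPM in wild-type libraries, a log2 difference of 0.18 ± 0.18 (SE). The genotypes overlapped in both, and col16a1 again had library 3 as the lowest within each genotype. The related col12a1b stood at 32.6 to 45.3 CPM in mutant and 26.5 to 37.4 CPM in wild-type libraries, and col14a1a at 20.2 to 44.2 and 14.3 to 34.6 CPM. In the gene name table col16a1 and col9a2 are neighbours, yet wild-type 3 was the lowest library for col16a1 and the highest for col9a2.

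The gene col19a1, listed with the synonym stumpy in the gene name table, was the 1 collagen with reads in a single genotype. It had 0 reads in each mutant library, and 0, 105 and 8 reads in wild-type libraries 1, 2 and 3. Against a floor of 3 reads over the mutant libraries, summed reads per scaled library size were 40.4-fold higher in wild-type libraries, with the wild-type count taken as exact. This value covers counting error in the mutant libraries only, and it rests on wild-type 2, without which 8 reads remain. The gene is named because its reads lie in 1 genotype. Neither this value nor the p-values below are therefore support for a difference between the genotypes. The gene was below the low-count filter used here, and in the edgeR fits with no filter or a filter at 10 reads in all it did not pass (unadjusted p of 0.0165 and 0.0193, adjusted p of 1.00 in both).

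The anchoring fibril genes col7a1 and col7a1l, whose type 7 collagen ties the epidermal basement membrane to the dermis, stood at 37.4 to 67.9 and 12.6 to 26.8 CPM in mutant libraries, against 39.9 to 58.1 and 7.20 to 20.3 CPM in wild-type libraries. The hemidesmosome collagen genes col17a1a and col17a1b stood at 8.47 to 15.6 and 2.12 to 4.74 CPM in mutant libraries, against 6.87 to 18.8 and 2.97 to 6.14 CPM in wild-type libraries. The genotypes overlapped in all of them.

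Of the short-chain collagens, type 8 collagen is a network collagen of vessel walls and of the cornea in mammals, and col8a1a is needed for a straight notochord in zebrafish. Its level was 5.63, 6.79 and 5.11 CPM in mutant libraries, against 4.12, 12.7 and 14.8 CPM in wild-type libraries. Wild-type 2 and wild-type 3 lay above all mutant libraries and wild-type 1 below them. The log2 difference of -0.85 ± 0.43 (SE) did not pass and ranged from -1.23 to -0.53 with each library left out. The gene col8a2 stood at 3.08 to 5.76 CPM in mutant and 4.04 to 7.87 CPM in wild-type libraries, and col8a1b had 28 reads in mutant and 24 in wild-type libraries in all. With col10a1 the summed short-chain level was 11.4, 11.2 and 9.60 CPM in mutant libraries, against 12.7, 16.9 and 33.3 CPM in wild-type libraries. All mutant sums thus lay below all wild-type sums, whereas each member gene overlapped, as did the sums of the other subclasses. In wild-type 3, col8a1a held 14.8 CPM and col10a1 14.2 CPM. No test was made on this sum.

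The type 6 genes, whose beaded filaments surround muscle fibres and other cells, overlapped between the genotypes. Levels of col6a1, col6a2, col6a3 and col6a6 ranged from 2.63 to 7.29 CPM in mutant and from 1.08 to 11.6 CPM in wild-type libraries. All had wild-type 1 as their lowest library. Within libraries the ratio of col6a1 to col6a2 reads was 0.646 to 0.815 in mutant and 0.305 to 0.605 in wild-type libraries. That of col6a3 to col6a2 was 1.24 to 1.54 and 0.866 to 1.11. These ratios did not overlap between the genotypes, nor did that of col15a1b to col18a1 (0.266 to 0.365 and 0.137 to 0.249). The other chain ratios taken overlapped, and none was tested. The pairs were chosen by hand, and the share of all gene pairs whose ratios do not overlap was not computed. Both type 6 ratios have col6a2 as the denominator, and col6a1 had as few as 46 reads, in wild-type 1. Lastly, col28a1 stood at 16.4 to 20.8 CPM in mutant and 13.1 to 42.3 CPM in wild-type libraries, with wild-type 2 highest.

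Summed over the basement membrane, fibrillar and other classes, the genotypes overlapped. The basement membrane class summed to 1868, 1546 and 950 CPM in mutant libraries, against 1135, 1220 and 768 CPM in wild-type libraries, a ratio of means of 1.397. The fibrillar class summed to 2338, 2111 and 1854 CPM in mutant libraries, against 1680, 1881 and 2326 CPM in wild-type libraries, a ratio of 1.07. The other collagens summed to 668, 646 and 645 CPM in mutant libraries, against 447, 682 and 937 CPM in wild-type libraries, a ratio of 0.949. Mutant 3 and wild-type 3 were the lowest basement membrane libraries of their genotypes, and wild-type 3 was the highest library of the others class.

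As a share of collagen reads, the basement membrane class held 33.9% ± 5.66 in mutant and 28.7% ± 8.46 in wild-type libraries (SD, n = 3 each), the fibrillar class 50.3% ± 3.07 and 53.0% ± 4.19, and the others 15.8% ± 2.59 and 18.3% ± 4.78. The type 2, 9 and 11 genes together took 23.4%, 25.3% and 34.6% in mutant libraries, against 20.03%, 28.9% and 49.7% in wild-type libraries, so that wild-type libraries alone spanned the whole range. No test was made on these sums, since they add up chosen genes.

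**Figure D5:**
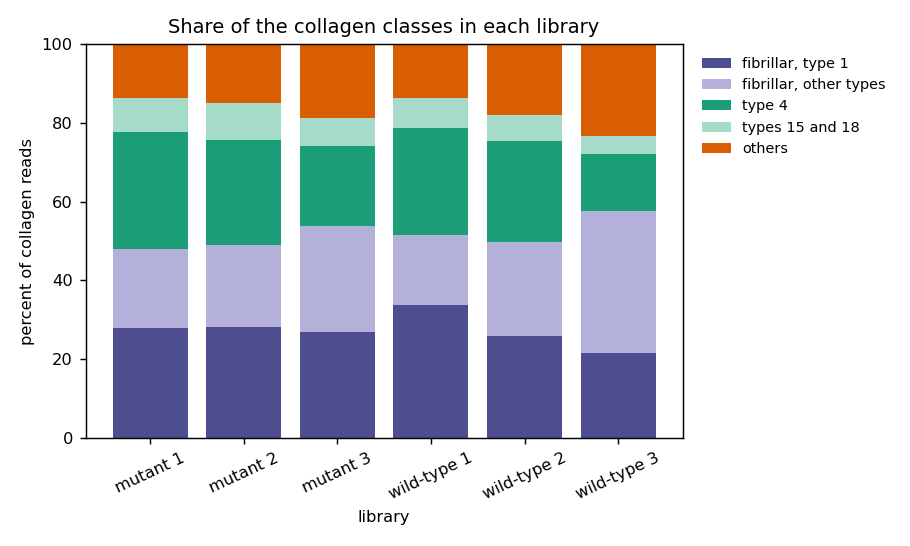
Share of all collagen reads in each library, in percent, taken by type 1, the other fibrillar collagens, type 4, types 15 and 18, and the others, mutant left and wild-type right. Wild-type 3 has the smallest share of type 4 (14.5%) and the largest shares of fibrillar genes (57.7%) and others (23.2%).

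Genes that make, export, trim and bind collagen were not called, as was true of all 19381 genes tested. No count of calls can therefore set these genes apart. Of 77 partner genes listed, 64 were found and 59 tested, and 0 passed in either direction, with 2 at an unadjusted p under 0.05 (3.39%, beside 1.57% of all genes), 31 fitted higher and 28 lower in mutant libraries (median log2 difference 0.03). The folding list had 13 of 18 genes fitted higher (median 0.23), led by serpinh1a, a gene for the collagen chaperone Hsp47, at 48.3, 42.8 and 29.7 CPM in mutant libraries, against 31.9, 30.2 and 23.2 CPM in wild-type libraries, a log2 difference of 0.50 ± 0.22 (SE). Its paralogue serpinh1b lay the other way, at 53.7, 90.3 and 42.9 CPM in mutant libraries, against 63.3, 99.5 and 60.4 CPM in wild-type libraries. The lysyl hydroxylase gene plod3 differed by 1.15 ± 0.74.

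In the export list 4 of 8 genes were fitted higher, with the vesicle coat genes sec13 at 0.24 ± 0.15 and sec24c at -0.27 ± 0.18 (log2 difference, SE). In the list of trimming and crosslinking 5 of 14 were fitted higher (median -0.19), with pcolce2b, which enhances procollagen trimming, at -1.39 ± 0.64 and the protease gene adamts3 at 1.53 ± 0.77. Among the receptors 5 of 11 were fitted higher (median -0.11), and the discoidin domain receptor genes ddr2l and ddr2b differed by 0.47 ± 0.21 and -1.46 ± 1.21. Of the proteoglycans that bind fibrils 4 of 8 were fitted higher (median 0.07), with fmodb at 1.48 ± 1.27 and lum at 0.20 ± 0.22. None of these passed.

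Rows whose collagen symbol is written in capital letters fell outside the membership rule by their spelling. There were 9 of them with at least 10 reads, and the row with the most reads, COL5A2_(2_of_2), had 4322, 3942 and 4076 reads in mutant libraries and 3375, 3488 and 3890 in wild-type libraries. As no gene in the fit was called, the number of called collagen genes stayed at 0 with them included. COL25A1 and COL26A1 were below the low-count filter and not tested. With these rows included the class ratios were 1.07, 1.397 and 0.947 for the fibrillar, basement membrane and other collagens.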

How the data were processed

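Zebrafish RNA-seq libraries, 3 mafba mutant and 3 wild-type, were analysed. The authors deposited whole-number read counts per gene symbol, not normalised, in a table of the series and in a file per library, which agreed gene by gene. Per the submitters' processing notes, bcl2fastq, STAR and HTSeq were used, and the builds danRer7 and Zv9 are named. As the strand setting, annotation and versions were not stated, reads of overlapping, antisense or near-identical genes, such as collagen paralogues, may be misassigned or lost. The 5 summary rows of each library file (22.1% to 28.1% of entries) were left out.

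Counts were fitted in R 4.3.3 with edgeR 4.0.16: default low-count filter, TMM scaling, robust quasi-likelihood test, Benjamini-Hochberg adjustment over 19381 genes, threshold 0.05. limma 3.58.1 (voom with library quality weights, robust) and DESeq2 1.42.0 were alternatives. The fit was also run on simulated counts, drawn independently for each gene and library. Shifts shared by many genes of a library were not simulated, so this run does not cover them. CPM were computed from the counts with TMM-scaled library sizes; SE and 95% intervals come from the fit. Figures were made with matplotlib 3.10.9 (Python 3.11.15). The floor on the summed reads of col19a1 covers counting error in the mutant libraries only.

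Members and lists were chosen with earlier results of these data known. Members with per-library values and log2 differences were the 4 of highest mean CPM per class, the 5 of smallest p, those with reads in 1 genotype only, and the type 1, 4, 15 and 18 pairs; partner genes were the 2 of smallest p per list. Other members are given by ranges, and per-library values of col11a2, col10a1, col2a1b and serpinh1b and of the class sums were added after their values were seen. Per-library values of col5a2b, the markers pdgfra and epyc, some marker sums and COL9A1_(2_of_2) were also given, chosen by none of these rules. Of the 45 symbols, 39 matched the GRCz12tu gene name table by symbol, 5 by synonym and 1 not at all. Coordinates of that table served only to order genes for the neighbour pairs, because builds differ. The labels do not state whether replicate libraries derive from different pools of fish; the p-values therefore reflect only variation among the libraries, possibly technical. The planned ranking of genes per coding length was not run, since no lengths were at hand.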

Additional observations from a re-analysis of the deposited data

How the results depend on the processing

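The number of genes called, of collagen genes called and of partner genes called was 0 at the threshold of 0.05 under each scaling, filter, tool and left-out library, and 0 at a threshold of 0.1 in edgeR without a block; DESeq2 called 3 genes, none a collagen, at 0.1. A fit with a replicate block by library number called 0 genes at 0.05; 10 of 43 collagen genes had an unadjusted p under 0.05 (beside 2.70% of all genes), and the lowest adjusted p, 0.0535, was that of col15a1b at a log2 difference of 1.19. No label links a number to a shared batch, and deviations of same-numbered libraries correlated at 0.0598, 0.0211 and 0.140 across all genes tested, at 0.346, 0.114 and 0.537 across genes averaging 5 or more on the log2 CPM scale, and at -0.348, -0.0534 and 0.521 across the tested collagen genes. The answer thus depends on the genes used, and whether the numbers pair the libraries is not settled. Collagen genes whose genotypes did not overlap numbered 3 with library totals and from 2 to 13 with each library left out. Leaving out mutant 3 gave 13 (30.2%, beside 21.2% of all genes) and wild-type 1 gave 10 (23.3%, beside 16.7%); the other 4 gave 4.65% to 11.6%, beside 13.1% to 16.4% of all genes. With type 4 alone as the basement membrane class, its share of collagen reads over the 6 libraries was 24.02% in place of 31.31%, and that of the others 24.36% in place of 17.07%. Of 453 alternative values for 27 named genes, 442 kept the sign and 11 in 6 genes did not: with each library left out, col2a1a ranged from -0.684 to 0.4379, col4a1 from -0.2685 to 0.325, col4a2 from -0.3483 to 0.04452, col9a1 from -0.5604 to 0.5533, col9a2 from -0.6686 to 0.4325 and col9a3 from -0.7715 to 0.08841, and with the replicate block col4a1 was -0.01396 and col9a1 0.05143. The cause was not tested. Among the alternatives were a fit on the per-library files, whose counts were identical, and a fit without the robust step. Both repeated the log2 differences of the main fit for the collagen genes, so their signs are no added check. Depth limits the 6 genes of at most 1 CPM, of which none passed. Levels per coding length were not run.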
